A study of Homo sapiens with 30 samples.

Results

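LARP6 lacking its C-terminal region (ΔCTR) was compared with the full-length protein (FL) by iCLIP, an assay in which ultraviolet light links a protein to the RNA it touches and the linked nucleotide is read out by sequencing. The members were the 15870 peaks of the ΔCTR list and the 14334 peaks of the FL list, 30204 of the 48311 peaks in the 5 lists of the series. The nucleotide at the middle of a peak decided its gene and its region, and the score of a peak is the summed number of crosslinked cDNAs over the replicates in which it was called. Each list combined 3 replicates, so 1 value exists per variant and peak, no spread between replicates can be given and no test was possible. All intervals below are 95% intervals of counting error only.

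Both proteins carried a myc tag at the N-terminus, were encoded by codon-optimised DNA and were made from a doxycycline-inducible lentiviral vector in U-87 MG, an established human glioblastoma line. Both stable lines came from puromycin selection of transduced cells, received doxycycline at 60 ng/mL for 24 h, and kept their endogenous LARP6 gene. Peaks called in the parental line, which has no myc-tagged protein, had been subtracted from each list. RNA abundance came from 1 long-RNA library per line (27935221 counts in genes for FL and 26936180 for ΔCTR), in which VIM stood at 7074 and 7342 CPM (counts scaled to library size), while the astrocyte markers GFAP and S100B were at or near 0 in both lines. How much of each tagged protein was immunoprecipitated was not analysed here. The N-terminal region deletion (ΔNTR), made in the same way, is given beside some values for reference and shares the FL list with the comparison.

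LARP6 is a cytoplasmic La-related protein best known for binding a stem-loop in the 5'UTR of type I collagen mRNAs. The La motif and the adjoining RNA recognition motif together form its RNA-binding La-module, and disordered regions lie on either side of that core. The 5'UTR is the stretch of mRNA that the small ribosomal subunit scans from the cap to the start codon, and it is commonly rich in G and C.

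The sequences that carry the comparison are given first, each as 30 nt of the reference genome (GRCh38) centred on a peak, read 5' to 3' on the strand of the mRNA, with unbroken runs of at least 4 G or C bases in capitals. The first set holds 5'UTR sites of LARP6 target mRNAs whose FL and ΔCTR scores were close, the second holds strong FL sites that were weaker or absent in the ΔCTR list, and the third holds coding and 3'UTR sites with a higher ΔCTR score.
COL1A1 5'UTR, chr17:50201541-50201570 (-): gaGCGGacgctaaCCCCCtCCCCagccaca
COL1A2 5'UTR, chr7:94394968-94394997 (+): gatacctCCGCCGGtgacccaGGGGCtctg
RPLP2 5'UTR, chr11:809964-809993 (+): cttccttttcctccctgtCGCCaccgaggt
CCNI 5'UTR, chr4:77075710-77075739 (-): gcctcaGGCCGGGGGtcatcatggaactaa
CAMK2N1 5'UTR, chr1:20485565-20485594 (-): aGCGCaGCGCaGCCGCGGGCGCtctCCGGG
FTH1 5'UTR, chr11:61967605-61967634 (-): gccagacgttcttCGCCGagagtcgtCGGG
RPLP1 5'UTR, chr15:69452826-69452855 (+): ctcagctGCCGCCaaggtgctcggtccttc
HNRNPA0 5'UTR, chr5:137754270-137754299 (-): ttgtcttccagtctcctCGGCtCGCCCttt
VIM 5'UTR, chr10:17229333-17229362 (+): acccacacccaCCGCGCCCtcgttCGCCtc
EIF2S3 5'UTR, chrX:24054952-24054981 (+): cttcctcttttggcaacatGGCGGGCGGag
COL6A3 CDS, chr2:237334681-237334710 (-): ctcgctGGGCagacataccatgtggctgtg
ATP2A2 CDS, chr12:110339595-110339624 (+): gtctgtcattcgagagtGGGGtagtggcag
LAMB1 CDS, chr7:107940293-107940322 (-): agtgtgaccagtccaCGGGCCagtgtgtct
UHMK1 3'UTR, chr1:162528587-162528616 (+): cacattgggtacagtgggtggcattagtat
ACTB 3'UTR, chr7:5527487-5527516 (-): ttgtttttttaatagtcattccaaatatga

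The ΔCTR list was larger than the FL list as a whole but smaller in 5'UTRs and introns. Its summed score was 118751 against 102788, a ratio of 1.16, and it had peaks in 5219 genes against 4873. Yet 443 of its peaks were centred in a 5'UTR, against 649 for FL and 737 for ΔNTR. That was 2.79% of ΔCTR peaks (2.55 to 3.06%, Wilson), 4.53% of FL peaks (4.20 to 4.88%) and 4.29% of ΔNTR peaks (4.00 to 4.60%). The ΔCTR interval lies below both others, whose intervals overlap.

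By score, 5'UTRs held 2864 of the ΔCTR total and 4199 of the FL total, 2.41% and 4.09%. The share of score in 5'UTRs was thus 0.590 times that of FL (0.563 to 0.619), while for ΔNTR the same ratio was 1.11 (1.06 to 1.16). Coding sequence (CDS) kept its share, at 1.00 times FL (0.988 to 1.02), and the 3'UTR share was 1.07 times FL (1.06 to 1.08). Introns were the other region with a smaller ΔCTR share, at 0.697 times FL (0.674 to 0.721), and for ΔNTR their ratio was also below 1, at 0.798. A cluster of peaks at the first exon of PGK1, a glycolytic enzyme gene, straddles the intron and 5'UTR calls (FL 359 intronic and 0 in the 5'UTR, ΔCTR 123 and 43). Without PGK1 the intron ratio was 0.717 and the 5'UTR score ratio was 0.579.

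The smaller number of 5'UTR peaks was not limited to the weakest calls. At the lowest score, 3, FL had 363 peaks and ΔCTR 253. At scores of 4 to 5 there were 151 and 86, at 6 to 9 there were 62 and 54, at 10 to 29 there were 56 and 40, and at 30 or above 17 and 10. In each of these 5 score classes the ΔCTR number was the lower one, although the intervals of the peak ratio reach 1 in the classes from 6 upwards, where few peaks remain. The mean score of a 5'UTR peak was nearly the same in both lists (6.47 in each).

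FL sites in 5'UTRs were overlapped by ΔCTR peaks less often than those in CDS and 3'UTRs, though more often than intronic sites (15.4%, 13.5 to 17.6%). Of the 649 FL 5'UTR peaks, 165 overlapped a ΔCTR peak (25.4%, 22.2 to 28.9%), against 37.8% of CDS peaks (36.5 to 39.2%) and 43.0% of 3'UTR peaks (41.8 to 44.1%). The ΔNTR list overlapped 31.3% of the same FL 5'UTR peaks (27.8 to 34.9%), 34.8% of CDS peaks (33.5 to 36.1%) and 40.2% of 3'UTR peaks (39.0 to 41.4%). The 5'UTR share was thus also the lowest of these for ΔNTR, and its 5'UTR interval overlaps that of ΔCTR. Among FL peaks of score 6 to 9 the shares overlapped by ΔCTR were 38.7% in 5'UTRs (27.6 to 51.2%), 66.4% in CDS (62.7 to 69.9%) and 67.7% in 3'UTRs (64.6 to 70.6%), so the difference stood within a score class. In the other direction 37.2% of ΔCTR 5'UTR peaks (32.9 to 41.8%) overlapped an FL peak, against 33.5% in CDS, 36.6% in 3'UTRs and 40.1% in noncoding exons. Over the whole ΔCTR list the figure was 34.4%, so 5'UTRs were near the list as a whole. No overlapping FL peak was called for 278 of the 443 ΔCTR 5'UTR peaks, beside 10415 of all 15870.

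Where exactly 1 FL peak and 1 ΔCTR peak overlapped, the 2 scores of the same site can be set side by side. At the 146 such sites in 5'UTRs the summed score was 1962 in FL and 1525 in ΔCTR, a ratio of 0.777 (0.726 to 0.831). At 1647 CDS sites the ratio was 1.11 (1.09 to 1.14) and at 2346 3'UTR sites 1.19 (1.17 to 1.21). These ratios and the medians below are of unscaled scores, and the ΔCTR total was 1.16 times that of FL. The CDS ratio lies below that of the totals and is no gain in share, with 55.4% of CDS sites lower in share. A site had a lower share of its list's score in ΔCTR in 105 of 146 cases in 5'UTRs (71.9%), where the figure over all 4468 shared sites was 55.7%. Shared intronic sites had the same pattern, with 127 of 177 lower in share (71.8%) and a score ratio of 0.825 (0.786 to 0.867). Over all 146 5'UTR sites, 71 scores were lower in ΔCTR, 45 higher and 30 equal, and the median log2 ratio was 0, as in CDS. Among stronger sites, with 20 or more over both lists, the median log2 ratio of ΔCTR to FL score was -0.53 at 47 5'UTR sites, 0.24 at 487 CDS sites and 0.29 at 757 3'UTR sites. The number of 5'UTR sites and the summed score at retained 5'UTR sites were thus lower.

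At gene level, 506 genes had a 5'UTR peak in FL and 367 in ΔCTR, a ratio of 0.725 (0.632 to 0.831). Both lists had one in 164 genes, which is 32.4% of the FL genes and 44.7% of the ΔCTR genes. FL and ΔNTR shared 227 such genes, 44.9% of the FL genes and 39.8% of the ΔNTR genes. The same share over genes with a peak in any region was not computed, so how far 32.4% departs from it is not known. The rest of the same mRNAs did not follow. In the 342 genes with a 5'UTR peak in FL alone, whose 5'UTR score of 1466 had no ΔCTR counterpart by choice, the CDS score was 4905 in FL and 5585 in ΔCTR (ratio 1.14), and the 3'UTR score 4118 and 5004 (1.22). In the 164 genes with one in both lists, the 5'UTR score was 2733 and 2059 (0.753, 0.711 to 0.798), beside 6306 and 7710 in CDS (1.22). In the 203 genes with a 5'UTR peak in ΔCTR alone the CDS ratio was 1.27 and the 3'UTR ratio 1.23. These are ratios of unscaled scores. As shares of each list's total, the ratios in the 342 genes were 0.986 (0.948 to 1.02) in CDS and 1.05 (1.01 to 1.10) in 3'UTRs. In the 164 genes they were 0.652 in 5'UTRs and 1.06 in CDS, and in the 203 genes 1.10 in CDS and 1.07 in 3'UTRs. Input RNA of the 342 genes differed between the lines by a median log2 ratio of -0.01, with quartiles of -0.06 and 0.05.

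The 5'UTR was lower along its whole length, and so was the beginning of the coding sequence. Positions were taken on 1 representative transcript per gene. Within 50 nt of the transcript start FL had 195 peaks and ΔCTR 146, between there and the last 50 nt 275 and 177, and within 50 nt upstream of the start codon 117 and 82. The shares of score were 0.614, 0.571 and 0.603 times those of FL, with overlapping intervals. With windows of 100 nt the score intervals of the first and middle parts did not overlap, at 0.636 (0.596 to 0.679) near the start and 0.506 (0.455 to 0.562) between. The middle thus had the lower ratio by score with these windows. By peaks the ratios of shares were 0.659 (0.553 to 0.784) and 0.532 (0.405 to 0.696), with overlapping intervals. By length of the 5'UTR, the ratio of score shares was 0.754 (0.676 to 0.842) up to 100 nt, 0.657 for longer ones up to 200 nt, 0.509 up to 400 nt and 0.501 (0.452 to 0.555) above 400 nt. Longer 5'UTRs thus had the lower ratio by score. By peaks the shortest and longest classes gave 0.811 (0.610 to 1.08) and 0.530 (0.405 to 0.691), with overlapping intervals.

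In the CDS, the first 50 nt held 167 FL and 139 ΔCTR peaks with a ratio of score shares of 0.695 (0.645 to 0.749), and the next 50 nt held 174 and 122 with 0.876 (0.811 to 0.947). In the following 100 nt the ratio was 0.829 (0.784 to 0.876), and from 200 to 500 nt it was 1.03 (0.997 to 1.07). It was 1.04 from 500 to 1000 nt and 1.05 beyond. The lower ΔCTR score therefore ran past the start codon and ended about 200 nt into the coding sequence. In the first 100 nt of the 3'UTR the ratio was 0.967 (0.926 to 1.01), and it was 1.12 from 100 to 500 nt.

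GC content moved with these differences. In the 31 nt around the centre, 5'UTR peaks averaged 66.8% GC in FL, 64.5% in ΔCTR and 66.2% in ΔNTR, CDS peaks 52.4%, 51.1% and 53.0%, and 3'UTR peaks 44.3%, 43.2% and 44.5%. The ΔCTR mean was the lowest of the 3 lists in each region. Among 5'UTR peaks of 45 to 55% GC there were 97 in FL and 90 in ΔCTR, and at 75% or more there were 185 and 100, with ratios of score shares of 0.834 (0.737 to 0.944) and 0.466 (0.423 to 0.513). The C and T content of 5'UTR peaks was 54.4% in FL and 54.2% in ΔCTR, so pyrimidine content differed little.

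With GC classes of below 55%, 55 to 65% and at least 65%, the 5'UTR was lower in each, and GC content made a difference within the 5'UTR. In narrower classes this did not always hold. Below 35% GC, with 14 FL and 10 ΔCTR 5'UTR peaks, the ratio of score shares was 1.01 (0.674 to 1.52). At 35 to 45% GC there were 28 FL and 30 ΔCTR peaks, with a ratio of score shares of 0.598 (0.476 to 0.749). Among peaks of at least 65% GC, the ratio of score shares was 0.498 (0.466 to 0.532) in 5'UTRs and 0.558 (0.510 to 0.609) within 200 nt of the start codon. It was 0.849 (0.806 to 0.894) in other CDS and 1.02 (0.966 to 1.07) in 3'UTRs of the same GC class. The 3'UTR was lower by peaks in that class, at 0.868 (0.755 to 0.999), and by score at 55 to 65% GC, at 0.929 with an interval below 1, where the 5'UTR ratio was 0.668 (0.607 to 0.736). Below 55% GC the 5'UTR ratio was 0.786 (0.708 to 0.872) and the 3'UTR ratio 1.10 (1.09 to 1.11). When the ΔCTR peaks in mRNA exons were weighted to the GC makeup of FL, the 5'UTR share was 3.76%, between the unweighted 3.08% and the 5.11% of FL. Whether library preparation treated GC-rich fragments differently in the lists was not tested.

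The strongest 5'UTR sites of FL did not move together. Among the 10 highest, 8 had a lower share in ΔCTR, the interval lay below 1 for 6 of them and above 1 for 0, and their summed score was 855 in FL and 630 in ΔCTR. They were picked by FL score, so the choice itself favoured a lower share in ΔCTR. Of all 146 shared 5'UTR sites 71.9% were lower in share, and of the 47 with 20 or more over both lists 83.0%. The highest site, in CCNI, which encodes the atypical cyclin I, had 185 in FL, 99 in ΔCTR and 68 in ΔNTR, a ratio of shares of 0.463 (0.359 to 0.594). CAMK2N1, an inhibitor of the calcium and calmodulin-dependent kinase CaMKII, had 104, 65 and 44 at one site and 61, 28 and 27 at a second. The 2 sites of FTH1, the ferritin heavy chain, differed: one had 107 in FL and 108 in ΔCTR (0.874, 0.662 to 1.15), and the other 66 and 21 (0.275, 0.160 to 0.456), with 86 and 79 in ΔNTR. Among the remaining sites RPLP1, a ribosomal stalk protein, had 45 and 14 with 57 in ΔNTR. HNRNPA0, an AU-rich element binding protein, had 45 and 9 with 25 in ΔNTR.

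The type I collagen sites had scores closer to those of FL. The COL1A1 5'UTR site had a score of 92 in FL, 111 in ΔCTR and 39 in ΔNTR, and the COL1A2 site 98, 107 and 46. The ratios of shares for ΔCTR were 1.04 (0.785 to 1.39) and 0.945 (0.712 to 1.26). The site in RPLP2, the other acidic stalk protein, had 24, 26 and 24 (0.938, 0.517 to 1.71). At these 3 sites the score was higher in the ΔCTR list, whose total was also larger, and the intervals of the share ratios reach well to either side of 1. Input RNA of COL1A1 was itself higher in the ΔCTR line, and divided by the input ratio the values were 0.766 (0.576 to 1.02) for COL1A1, 0.898 (0.676 to 1.19) for COL1A2 and 0.834 (0.460 to 1.52) for RPLP2, all still reaching 1. LGALS1, the secreted lectin galectin-1, was the other site of the 10 with a higher ΔCTR share, at 52 and 68 (1.13, 0.777 to 1.66, or 0.985 after division by input).

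Of the FL 5'UTR peaks without a ΔCTR overlap, the highest was in VIM, the intermediate filament protein vimentin, with a score of 30 in FL, 27 in ΔNTR and no peak within 50 nt in ΔCTR, where the FL peaks of that stretch, those at the start of the CDS included, summed to 86. It was followed by another CAMK2N1 peak at 19, MRPS12 of the mitochondrial ribosome at 17, EIF2S3, a subunit of the initiation factor that brings the initiator tRNA, at 16, RPL37A at 14 and GIGYF1, a translational repressor partner, at 13. The next were CAMK2N1 at 12, DCBLD2 at 12, CAMK2N1 at 10 and CCAR1 at 10. CAMK2N1 thus supplied 3 of these 10 peaks and its 5'UTR as a whole had 9 FL and 4 ΔCTR peaks with summed scores of 223 and 102. Overlapping ΔNTR peaks scored 15 at the CAMK2N1 peak of 19, 27 at that of 10, 5 at DCBLD2 and 3 at RPL37A. MRPS12, EIF2S3, GIGYF1, CCAR1 and the CAMK2N1 peak of 12 had no overlapping ΔNTR peak either, so their absence was not particular to ΔCTR. The 5 highest ΔCTR 5'UTR peaks without an FL overlap were weaker, in the metallothionein gene MT2A at 19, in ODC1, the first enzyme of polyamine synthesis, at 11, and in ADPRH, IGFBP3 and KIAA0586 at 10 each. The 5'UTR of the endogenous LARP6 mRNA itself had a summed score of 28 in FL, 9 in ΔCTR and 17 in ΔNTR.

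Score shares per gene were compared in the 905 genes with 50 or more over both lists together, as the log2 ratio of shares less the log2 ratio of input RNA. At least 1.5-fold higher in ΔCTR were 139 genes (15.4%) and at least 1.5-fold lower 143 (15.8%), and the median over all 905 was -0.02. The counting interval also excluded 0 for 121 of the higher and 128 of the lower genes. The long-RNA input of the 2 lines was nearly the same, with quartiles of the log2 ratio of -0.05 and 0.04, and in 0 of the 905 genes did it differ by 1.5-fold. Adjustment for this input, from 1 library per line, therefore moved most gene changes little, though COL1A1 stood at 734 CPM in FL and 1000 in ΔCTR. With the small-RNA library of each line, which is not a measure of intact mRNA, the quartiles were -0.21 and 0.42.

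The genes with the largest gains were taken among the 468 with 100 or more over both lists. ATP2A2, the SERCA2 calcium pump of the endoplasmic reticulum, had a score of 38 in FL, 125 in ΔCTR and 75 in ΔNTR, a change of 1.54 (1.03 to 2.13). LAMB1, the laminin beta-1 chain, had 33, 105 and 32, a change of 1.51 (0.96 to 2.15). HDLBP, the KH-domain RNA-binding protein vigilin, had 35, 109 and 71, a change of 1.47 (0.94 to 2.09). In each of these 3 the added score lay mainly in the CDS, at 38 and 89 for ATP2A2, 30 and 105 for LAMB1 and 31 and 103 for HDLBP. ATP13A3, a polyamine-transporting ATPase, had 68 and 196, divided between CDS (30 and 101) and 3'UTR (29 and 92). SLC20A1, a sodium-phosphate cotransporter, had 210, 405 and 114 in ΔNTR, of which 1 CDS site held 113 in FL and 253 in ΔCTR.

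Other high genes gained in different places. UHMK1, a kinase that phosphorylates splicing factors, had 41 and 108, with 41 and 102 in its 3'UTR. SON, a large splicing cofactor, had 85 and 177 with 82 and 155 in its CDS. TFPI2, a secreted protease inhibitor, had 36 and 84 with a 3'UTR score of 13 and 76 beside a CDS score of 19 and 8. PLIN3, a lipid droplet coat protein, had 31 and 72, with 20 and 62 in its 3'UTR. THADA had 57 and 138, almost all from 1 intronic site at 54 and 133, and RNU6-40P, a U6 small nuclear RNA pseudogene with near-identical copies and 0 input counts, had 43 and 107. Outside this ranking PRNP, the prion protein, had the highest change of all 905 genes, with 10 in FL, 66 in ΔCTR and 31 in ΔNTR (95% interval of the log2 change 1.45 to 3.54), all in its 3'UTR.

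Among the genes with the largest losses, PFN1, the actin monomer-binding protein profilin-1, had the most input RNA of the 12. Its score was 194 in FL, 60 in ΔCTR and 223 in ΔNTR, a change of -1.93 (-2.39 to -1.53), with 108 and 26 in CDS and 65 and 31 in the 3'UTR. CAMK2N1 had 305 and 131 (-1.35), of which the 5'UTR gave 223 and 102, and its 3'UTR, at 63 and 26, was lower as well. PLCG1, a phospholipase that signals downstream of growth factor receptors, had 87 and 35 (-1.42), nearly all in CDS. ZNF395 had 87 and 39 (-1.40), all of it in the 3'UTR, and JPT2 had 117 and 58 (-1.34), mostly in the 3'UTR. IRF2BP2, a transcriptional corepressor, had 75 and 32 (-1.34), with 64 and 32 in the 3'UTR. Losses in score were thus found in every part of the mRNA and not only through 5'UTR sites.

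Of the 12 largest losses 5 were in genes with fewer than 100 input counts, ENSG00000278996, ENSG00000287050, LINC01819, FA2H and ENSG00000287804, so that input adjusts nothing there. LINC01819 had 123 in FL, 40 in ΔCTR and 10 in ΔNTR at 1 site, and FA2H 109, 46 and 75 at 1 site. BCAS3 had 93 and 34 in an intron. Below a summed score of 100, HNRNPA0 stood out with 64, 9 and 75 in ΔNTR (-2.92), of which the 5'UTR gave 57 and 9. EYA4 had the lowest change of all, at -4.55, with an FL score of 76 at a pair of neighbouring intronic peaks and a ΔCTR score of 3 elsewhere, while ΔNTR had 78.

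The base composition of the mRNAs differed between these groups in the direction seen at the peaks. Among protein-coding genes the median GC content of the CDS was 48.2% in the 137 genes called higher, 51.2% in the 592 called neither and 56.7% in the 125 called lower, and that of the 3'UTR was 37.9%, 41.0% and 47.2%. With a CDS below 45% GC, 18.5% of 205 genes were called higher and 7.32% lower. At 60% or more, 7.75% of 142 genes were called higher and 30.3% lower. The median change declined from 0.13 to -0.25 between these classes, while the median input ratio was 0.02 and 0.03 and the median ΔNTR change in share was -0.37 and 0.03. With the small-RNA input the medians of the end classes were -0.14 and -0.24, a smaller difference. Lower genes also had a longer median 5'UTR (187 nt against 154 nt in higher genes) and less input RNA (134 against 241 CPM). Their mean share of score in the 5'UTR was 8.76% against 2.35% in FL and 6.92% against 2.10% in ΔCTR, with a median of 0 in both groups. The calls were made from these same scores, so this share is not separate support.

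In the 41 function lists, more members were higher than lower in 15, the opposite held in 15 and the numbers were equal in 11. The list with the most members lower was that of the mitochondrially encoded mRNAs, which are made and translated inside mitochondria by separate machinery. With the long-RNA input, of 12 measured 0 were higher and 5 lower, all 12 changes were negative and the median was -0.52, beside -0.02 over all genes. MT-CO2 had a score of 148 in FL, 67 in ΔCTR and 74 in ΔNTR (-1.31), MT-CYB 169, 92 and 85 (-1.11), MT-ND6 83, 41 and 17 (-1.04), MT-ND4 283, 182 and 142 (-0.81) and MT-ND4L 60, 33 and 27 (-0.80). The summed score of the mitochondrial chromosome was 1549 in FL, 1092 in ΔCTR and 878 in ΔNTR, 1.51%, 0.920% and 0.945% of each list. Both deletions thus had a smaller share than FL. MT-ND4L and MT-ND4 overlap on 1 transcript, as do MT-ATP8 and MT-ATP6, so their scores are not separate measures of separate RNAs.

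Matrix glycoproteins and laminins, which are secreted to build the extracellular matrix, had gains and no losses. Of 8 measured, 4 were higher and 0 lower, with a median of 0.58 and summed scores of 1408 in FL, 2226 in ΔCTR and 1727 in ΔNTR. LAMB1 led, followed by FBN1 (fibrillin-1) at 139 and 257 (0.80), SPARC at 102 and 186 (0.71) and TGFBI at 199 and 376 (0.69), and FN1 (fibronectin) had 493 and 716 (0.47). FBN1, FN1 and LAMB1 differed mainly in the CDS, at 135 and 228 for FBN1 and 400 and 613 for FN1, while SPARC differed in the 3'UTR, at 99 and 183. The 5'UTR peaks of the list went the other way, with 15 in FL and 7 in ΔCTR, and FN1 alone had a 5'UTR score of 43 in FL and 8 in ΔCTR. The gain depended on the input: with the small-RNA input library, which is not a measure of intact mRNA, 1 member was higher and 2 lower and the median was -0.087.

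Collagen chains had a summed score of 1558 in FL, 2266 in ΔCTR and 1566 in ΔNTR, and a share 1.26 times that of FL (1.18 to 1.34). Of 6 chains measured 0 were higher and 1 lower, and COL1A1 input was itself higher in the ΔCTR line, at 1000 against 734 CPM. COL1A1 had 452 and 737 (0.05), with 295 and 572 in the CDS and 151 and 162 in the 5'UTR. COL1A2 had 280 and 397 (0.22), with 128 and 240 in the CDS and 152 and 147 in the 5'UTR, and COL6A3 had 460 and 739 (0.54), with 393 and 668 in the CDS. COL5A1 was the lower chain, at 74 and 42 (-0.94). In both type I chains the unscaled score along the coding sequence was thus higher in ΔCTR, while the unscaled 5'UTR score was near its FL value. The ΔCTR total was 1.16 times that of FL, so an equal score is a smaller share of the ΔCTR list.

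Lists of proteins that enter or serve the secretory pathway differed among themselves, and their counts stand beside 15.4% higher and 15.8% lower over all genes. Lysosomal proteins had 0 of 7 higher and 1 lower (median -0.26), and of 4 integrins 0 were called. Of 11 translocon and signal recognition proteins 4 were higher and 0 lower (median 0.19): RPN2 with 13 and 47 (1.59), SPCS3 with 14 and 40 (1.19), SEC62 with 18 and 52 (1.04) and RPN1 with 31 and 64 (0.86), while the 4 members with the highest scores, among them SSR1 at 202 and 206, were not called. Of 14 receptor kinases and cytokine receptors 3 were higher and 0 lower, IL6ST at 18 and 65 (1.51), ACVR1 at 22 and 42 (0.79) and MET at 50 and 102 (0.74). Endoplasmic reticulum chaperones had 3 of 11 higher, PDIA3 at 16 and 51 (1.44), EDEM1 and SEL1L, and 1 lower, ERP29. Solute carriers had 2 of 12 higher, SLC20A1 and SLC7A5 (1.29), and 1 lower, SLC16A3 (-1.84). The counts of higher receptors and solute carriers were near the share over all genes. Across the union of 10 such lists, a set chosen after the values were seen, 20 of 87 genes were higher (23.0%) and 4 lower (4.60%) with the long-RNA input, beside 15.7% and 17.4% of genes in no list, but 17 and 17 with the small-RNA input.

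Cytoskeletal and metabolic lists went in different directions. Over all 905 genes 15.4% were higher and 15.8% lower, and the median of -0.02 means that either sign was common. The short lists here and in the following paragraphs hold too few genes to be set apart from those values. Of 22 actins and actin regulators 4 were higher (ARPC2, CAP1, ACTR3 and CAPZA1) and 3 lower (PFN1, TPM4 and FSCN1), shares near those over all genes. ACTB, cytoplasmic actin, held the largest site of both lists, a 3'UTR peak of 2098 in FL, 3293 in ΔCTR and 1099 in ΔNTR, and its change of 0.37 was below the 1.5-fold line. Of 6 glycolytic enzymes 0 were called, but all 6 changes were negative (median -0.20), with PGK1 at 1238 and 1000. Tubulins had 1 of 5 higher and 0 lower (median 0.22), and nuclear-encoded respiratory chain subunits 1 of 3 and 0 (median 0.54). Of 12 focal adhesion proteins 9 changes were negative and 1, LASP1, was called lower. Of 6 annexins and S100 proteins 1 was higher, ANXA2, and 2 lower, S100A6 and S100A16 (median -0.54).

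Lists tied to translation differed in their 5'UTR scores. Large ribosomal subunit proteins had a 5'UTR score of 159 in FL and 93 in ΔCTR, of which RPLP1 alone gave 49 and 14. In this list 2 of 6 measured genes, RPLP2 and RPL23, were lower. Elongation factors and other mRNAs with a terminal oligopyrimidine tract had 99 and 64, of which VIM alone gave 30 and 0. By gene total VIM (489 and 346, -0.76) and the snoRNA host RNA GAS5 were lower. Small subunit proteins had 79 and 80, all 3 measured changes were positive (median 0.38) and RPSA was called higher. RPLP2 thus combined a similar 5'UTR score with a lower gene total (53 and 42, -0.71), its CDS score being 23 and 16.

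CTNNA1, the catenin that joins cadherins to actin, changed little, with 327 in FL, 381 in ΔCTR and 131 in ΔNTR (0.06, -0.16 to 0.27), and its main 3'UTR peak had 305, 355 and 97. The cadherin and catenin list had 0 of 3 called. Of 9 hnRNP proteins 2 were higher, HNRNPF (1.22) and HNRNPK (0.61), and 2 lower, HNRNPA0 and PTBP1 (-1.09). HNRNPH1, which had the highest score of that list, was near 0 at 720 and 780 (-0.10), with 248 in ΔNTR. At these leading 3'UTR targets the ΔCTR list thus stayed close to FL where ΔNTR had the smaller score.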

How the data were processed

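The authors called peaks in each replicate with Clippy from deduplicated crosslink positions, merged the replicates of a variant, summed the peak scores and subtracted peaks of the parental line, so the deposited score is a sum of crosslink counts over 3 replicates with a minimum of 3. Gene counts deposited by the authors came from STAR 2.7.10b on GRCh38.p13 with GENCODE release 42. Because peaks were thresholded before merging, a peak absent from a list may be one that fell under the minimum, and the lists were not scaled to each other. Shares of each list's total were therefore used, and where scores are set side by side unscaled the ΔCTR total was 1.16 times that of FL.

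Peak centres were assigned to CDS, then 5'UTR, 3'UTR, noncoding exon and intron with GENCODE release 44, and overlaps (at least 1 nt, same strand) were found with bedtools 2.31.1. Gene changes used a pseudocount of 1 on the score and on CPM, edgeR 4.0.16 TMM factors and a summed score of at least 50, with 1.5-fold calls and no test. CPM came from the reverse-strand column of the long-RNA libraries (1 per line), which held 63.4% and 64.0% of reads in genes. Function lists count genes by symbol, and some genes are in several lists. Shares carry Wilson intervals and ratios exact conditional binomial intervals, both for counting error only. Named genes were the 12 highest and 12 lowest changes with a summed score of at least 100, the 10 highest FL 5'UTR peaks, the 10 highest without a ΔCTR overlap, the 5 highest ΔCTR ones without an FL overlap, of each list described the called members and up to 4 with the highest scores, and 6 set genes. Members, lists and rules were chosen with earlier results of these data known. PRNP, EYA4 and sites shown as sequence outside these sets were named after their values were seen. One of the named genes is not reported here. Scripts were tested on simulated data. Only peak lists of FL, ΔCTR and ΔNTR are described, and those of the La-module deletions served as an alternative.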

Additional observations from a re-analysis of the deposited data

How the results depend on the processing

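The lower 5'UTR share of ΔCTR kept its direction under all 11 alternatives for peaks (ratio 0.565 to 0.736) and all 10 for score (0.554 to 0.680). Values outside the counting interval were 0.698 for peaks and 0.680 for score with 5'UTR set before CDS, which also gave 0.852 at shared sites, 0.554 for score with peaks of at least 10, and, chosen after seeing the data, 0.736 for peaks with GC classes weighted as in FL and 0.666 for score with the first 100 nt of the CDS added. Without the genes of the 10 highest FL 5'UTR peaks, without PGK1 (both added later) and without ACTB the values stayed inside it. The share of FL 5'UTR peaks overlapped was 33.6% with both lists limited to scores above 3 and 49.3% with both limited to at least 10. It was 18.6% when 50% of both peaks had to overlap, each time below CDS (50.5%, 69.2% and 26.9%). The GC difference of 5'UTR peaks (-2.31 percentage points) was -1.52 within the peak itself, and the gap in CDS GC between lower and higher genes (8.46 points) was 14.5 with 2-fold calls.

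Genes called higher and lower numbered 456 and 413 with a summed score of at least 20, 47 and 69 with at least 100, and 50 and 54 at 2-fold. With the small-RNA input 225 were lower, and 85 of the 139 higher and 113 of the 143 lower genes kept their call. Lists with more higher than lower members numbered 7 with a summed score of at least 100 and 6 with the small-RNA input. With that input the medians of the matrix list (-0.087), of the receptors (-0.23) and of the 10 secretory lists together (-0.15) were negative, and with a summed score of at least 100 that of the translocon list was -0.11. The cause was not tested. The median of the mitochondrial list stayed between -0.64 and -0.50 under all 12 alternatives. Its members were not all negative with the small-RNA input, where MT-ND3 was called higher (0.65), MT-ND5 (0.15) and MT-CO3 (0.11) were positive and 6 were lower.

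No paired analysis was possible because each variant has 1 pooled peak list and 1 input library per kind, and leaving out a replicate was not possible for the same reason. Sites with few crosslinks limit single-gene values.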
